A study of Mus musculus with 22 samples.

Results

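The comparison of ribosome-bound RNA with the RNA it was drawn from was examined in 6 control mice, each of which gave 1 immunoprecipitated library (IP) and 1 library of the material before immunoprecipitation (input). These 12 libraries, of 22 in the series, come from the 6 animals of 11 whose infusion is labelled EYFP, after a fluorescent protein, as control. The animals are named here by their IP libraries, IP_504, IP_505, IP_506, IP_507, IP_511 and IP_512. All 12596 genes of the deposited table entered. IP was set against input within the same animal. The other 5 animals were infused with hTyr, which the design text sets against EYFP, and they enter only a closing comparison. All mice, controls included, carried a Th-cre transgene and the Slc6a2-eGFP/Rpl10a transgene on a background the labels name as C57Bl/6. The labels call the IP libraries noradrenergic and the input libraries total hindbrain, and give neither age nor sex. As a model the design has limits that hold for every value. Tagged ribosomes are made wherever the Slc6a2 regulatory DNA of the transgene is active. Every animal also carries Cre under Th control and received an infusion labelled EYFP or hTyr. No animal without the tag was used here as a blank for the precipitation.

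The locus coeruleus is a small paired nucleus of the dorsal pons that supplies noradrenaline to most of the brain and is known for its part in arousal, attention and stress. Its neurons make noradrenaline from tyrosine in steps run by tyrosine hydroxylase (Th), aromatic amino acid decarboxylase (Ddc) and dopamine beta-hydroxylase (Dbh), load it into vesicles through the transporter encoded by Slc18a2, and take it back up through the transporter encoded by Slc6a2. In translating ribosome affinity purification, a ribosomal protein carrying a green fluorescent tag is made in chosen cells, and an antibody to the tag then pulls down their ribosomes with the RNA being translated on them. RNA that other cells contribute to the precipitate is a known limit of the method. In such bulk libraries a lower level cannot tell fewer cells of a type apart from less RNA per cell.

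The promoter windows of 3 genes whose RNA rose in IP are shown because their products act in a single pathway. They run from 250 bases before to 50 bases after the annotated start and are credited to RefSeq on GRCm38.p6. In the window of Dbh at chr2:27165257-27165556, plus strand, capitals mark ATTA or its reverse complement TAAT, the core letters that homeodomain proteins such as that encoded by Phox2a are known to bind. In the windows of Th at chr7:142899946-142900245, minus strand, and Slc18a2 at chr19:59260628-59260927, plus strand, capitals mark TGACGTCA, the palindrome known as the cyclic AMP response element.
Dbh: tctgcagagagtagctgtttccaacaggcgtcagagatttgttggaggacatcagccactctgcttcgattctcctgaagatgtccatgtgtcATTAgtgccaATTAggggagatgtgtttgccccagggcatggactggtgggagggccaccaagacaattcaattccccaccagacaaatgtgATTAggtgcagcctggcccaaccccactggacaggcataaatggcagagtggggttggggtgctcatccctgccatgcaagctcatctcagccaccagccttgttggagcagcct
Th: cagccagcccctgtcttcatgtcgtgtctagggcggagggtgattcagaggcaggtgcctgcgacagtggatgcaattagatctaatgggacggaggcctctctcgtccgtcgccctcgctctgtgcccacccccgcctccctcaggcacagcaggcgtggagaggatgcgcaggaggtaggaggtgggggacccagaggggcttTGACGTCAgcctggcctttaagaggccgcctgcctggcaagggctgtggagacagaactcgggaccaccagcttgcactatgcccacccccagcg
Slc18a2: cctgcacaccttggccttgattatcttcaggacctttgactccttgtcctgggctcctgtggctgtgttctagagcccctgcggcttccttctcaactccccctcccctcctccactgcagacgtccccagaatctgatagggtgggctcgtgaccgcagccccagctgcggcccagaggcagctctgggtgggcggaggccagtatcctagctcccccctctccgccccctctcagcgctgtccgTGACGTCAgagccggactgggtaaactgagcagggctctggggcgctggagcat
The Dbh window held 3 matches to ATTA or TAAT, overlapping matches counted, as did those of Ddc and Pcbd1, while that of Th held 2 and that of Slc18a2 held 1, not marked above. At least 1 match was present in 3882 of 9578 promoters of genes in the table (40.5%), and 3 or more in 682 (7.12%). The Th and Slc18a2 windows each held 1 match to TGACGTCA, which was present in 330 of the 9578 promoters (3.45%). Of 15 genes looked up, namely the 12 measured genes of noradrenaline metabolism with Phox2a, Gal and Calcr, 13 had a window. ATTA or TAAT was present in 6 of the 13 and TGACGTCA in 2.

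Depth lay between 15680491 and 20368032 reads in the EYFP IP libraries and between 16988860 and 21480570 in their inputs, counting reads of genes in the table. The 10 most abundant genes took 3.21% to 5.59% of the reads in IP and 4.30% to 10.3% in input, the highest share being that of the input of animal IP_507. The spread of the IP-minus-input differences over genes was wider in animals IP_504, IP_506, IP_507 and IP_512 (SD 0.51 to 0.61 on the log2 scale) than in animals IP_505 and IP_511 (0.39 and 0.38). Across genes, the differences of any 2 animals correlated with an r between 0.70 and 0.89 over 12596 genes, which are not independent replicates. The gene Rpl10a, which the tagged ribosomal protein shares with the native one, stood at 6.59 to 7.01 log2 CPM in IP and 6.75 to 6.93 in input, and its change of -0.06 (SE 0.06) did not pass the threshold (limma adjusted p = 0.365). Reads of the transgene and of the native gene cannot be told apart in these counts, for Rpl10a as for Slc6a2.

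IP and input differed over much of the table, mostly by small amounts. Values are log2 CPM, read counts scaled to the size of the library and put on a log2 scale with a pseudocount of about 2 reads, and a change of 1 is a doubling on that scale. In the paired fit 8133 of 12596 genes (64.6%) passed an adjusted p of 0.05, 3964 higher in IP (31.5%) and 4169 lower (33.1%). Changes of 1 or more were lopsided: 386 genes were higher by at least 1 (3.06%) and 62 were lower by at least 1 (0.492%). The median change of all genes was -0.03, with 10% of genes below -0.50 and 10% above 0.63. A call in either direction was thus common. Every count of a list below is to be read against these shares, 31.5% higher and 33.1% lower. Sizes are given beside each count. The lowest IP library lay above the highest input in 16.7% of all genes, and the highest IP library below the lowest input in 13.4%. Each statement below that the libraries of a gene did not overlap is to be read against these shares.

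The genes of noradrenaline synthesis, storage and uptake were the most enriched group. Of 12 measured, 11 rose, 0 fell and 1 did not pass, beside 31.5% of all genes that rose, and 7 rose by at least 1. Their median change was 1.22 against -0.03 for all genes, and it lay between 0.97 and 1.62 in single animals. Their summed level was 1425 to 2109.6 CPM in the IP libraries and 789.7 to 971 CPM in the inputs, so that the ranges did not overlap.

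Dbh, which turns dopamine into noradrenaline, ranged from 6.61 to 8.02 log2 CPM in IP (median 7.19) and from 2.95 to 3.63 in input (median 3.14). Every IP library was far above every input. The change was 4.02 (SE 0.14, limma adjusted p = 1.61e-12), a 16.3-fold difference, with 3.19 in animal IP_507 and 4.87 in animal IP_504 as the extremes. Slc6a2, the noradrenaline transporter, stood at 6.59 to 7.63 in IP (median 6.75) against 2.80 to 3.30 in input (median 3.03), again without overlap. Its change of 3.94 (SE 0.14, adjusted p = 1.61e-12, limma) is also that of the gene whose regulatory DNA drives the tag.

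Th, the first and rate-limiting enzyme of the pathway, lay between 6.53 and 7.70 log2 CPM in IP (median 6.93) and between 4.82 and 5.14 in input (median 5.06). It rose by 1.99 (SE 0.11, limma adjusted p = 2.80e-10), about 4-fold, and so by less than Dbh in every animal. Slc18a2, the vesicular monoamine transporter, rose by 1.92 (SE 0.10) from a median of 4.93 in input to 6.69 in IP. Gch1, which starts the synthesis of the tetrahydrobiopterin that Th needs, rose by 1.49 (SE 0.11), and Ddc rose by 1.13 (SE 0.08). IP and input libraries did not overlap for Th, Slc18a2, Gch1 or Ddc.

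**Figure D1:**
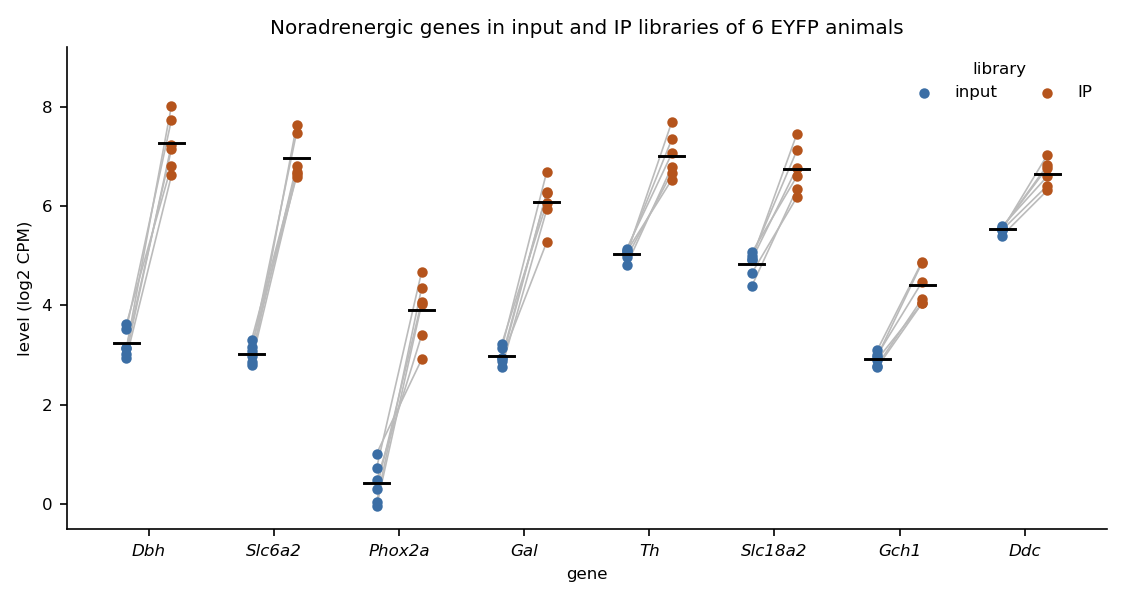
Level of 8 noradrenergic genes in log2 CPM (vertical axis) in each input library (blue) and IP library (orange) of the 6 EYFP animals, with a grey line joining the libraries of an animal and a black bar at each mean. For each of the 8 genes the lowest IP library lies above the highest input, and Dbh, Slc6a2, Phox2a and Gal show the longest lines.

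The remaining genes of the group, named here after their values were seen, rose by less than Gch1 or did not pass. Maoa, which breaks down monoamines, rose by 1.31 (SE 0.08). Pcbd1 and Qdpr, which regenerate tetrahydrobiopterin, rose by 0.87 (SE 0.08) and 0.30 (SE 0.06). Cyb561, an electron carrier of the vesicle membrane that serves Dbh, rose by 0.75 (SE 0.07), and Spr, the last enzyme of tetrahydrobiopterin synthesis, rose by 0.37 (SE 0.07). Pts, the enzyme between Gch1 and Spr, was at 5.13 to 5.39 log2 CPM in IP and 5.17 to 5.43 in input, and its change of -0.06 (SE 0.06) did not pass (limma adjusted p = 0.452).

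Among 11 measured transcription factors tied to the noradrenergic fate, 2 rose, 5 fell and 4 did not pass, with a median change of -0.18. Over all genes 31.5% rose and 33.1% fell. Among those that rose was Phox2a, a homeodomain factor that specifies noradrenergic neurons. It was scarce in input, at -0.04 to 1.02 log2 CPM (median 0.39, 17 to 42 reads), and stood at 2.92 to 4.68 in IP (median 4.05, 143 to 425 reads). The groups did not overlap, and the change was 3.49 (SE 0.24, limma adjusted p = 2.69e-09), from 1.90 in animal IP_511 to 4.31. The factors that fell included Hoxb2 (-0.61, SE 0.12), Insm1 (-0.51, SE 0.13), Lmx1b (-0.45, SE 0.11) and Ebf3 (-0.27, SE 0.07). Insm1 is known from neural precursors, and Lmx1b from serotonin neurons of the same hindbrain. For these 4 genes the IP and input libraries overlapped.

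The neuropeptide group was made of peptide precursors, granins and processing enzymes. It had 12 of 16 members higher in IP, 0 lower and 4 that did not pass, with a median change of 0.29. Of all genes 31.5% were higher and 33.1% lower. Gal, the precursor of galanin that most locus coeruleus neurons are known to make, stood at 5.28 to 6.69 log2 CPM in IP (median 6.17) and 2.76 to 3.22 in input (median 2.94). It rose by 3.10 (SE 0.12, limma adjusted p = 3.56e-12), and no input reached any IP library. Calca, the calcitonin and CGRP precursor, rose by 1.66 (SE 0.10). Pcsk1, a protease that cuts peptide precursors, rose by 1.24 (SE 0.09), and the granin Scg2 rose by 0.89 (SE 0.09). Npy and Cartpt, 2 peptides also reported from these neurons, had changes of 0.05 (SE 0.09) and 0.12 (SE 0.08) that did not pass. Both were named after their values were seen.

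Of 38 receptor genes, 15 rose, 10 fell and 13 did not pass, beside 31.5% of all genes that rose and 33.1% that fell. Their median of 0.06 was close to that of all genes and came to -0.13 in the upper 75% of genes by mean level. The calcitonin receptor gene Calcr stood apart, at 2.86 to 4.25 log2 CPM in IP (median 3.15, 138 to 315 reads) and 0.34 to 1.19 in input (median 1.02, 24 to 44 reads). It rose by 2.42 (SE 0.17, limma adjusted p = 3.20e-09) without overlap. Gabrq, the theta subunit of the GABA-A receptor, rose by 1.36 (SE 0.11). The nicotinic subunit genes Chrna6, Chrna3 and Chrnb3 rose by 1.17 (SE 0.11), 0.90 (SE 0.13) and 0.88 (SE 0.13), and the orexin receptor gene Hcrtr1 rose by 0.94 (SE 0.10). These 4 were named after their values were seen. The noradrenergic autoreceptor gene Adra2a rose by 0.25 (SE 0.09, limma adjusted p = 0.0255), while its relative Adra2c fell by 0.43 (SE 0.08), both also named after their values were seen. The dopamine receptor gene Drd2 fell by 0.63 (SE 0.11) and the serotonin receptor gene Htr1a by 0.57 (SE 0.08). Drd2 was higher in IP in 1 of 6 animals and Htr1a in 0 of 6.

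The 2 genes with the largest fitted rises of the whole comparison carry predicted symbols and are given although the rule for named genes leaves such symbols out. Gm39813 had 74 to 349 reads in each IP library and 0 to 4 in each input. Over all 6 animals this was 981 reads against 8, with 3 inputs at 0. The fitted change of 5.68 (SE 0.36) depends on the pseudocount, since its inputs lie near the lowest value the table can hold. RefSeq on GRCm38.p6 lists it as a long noncoding RNA at chr2:57223317-57224824, between Nr4a2 (ending at 57124003) and Gpd2 (starting at 57237678). Both neighbours rose by far less, Nr4a2 by 0.40 (SE 0.09) and Gpd2 by 0.39 (SE 0.09). Gm40600 had 101 to 337 reads in IP and 2 to 6 in input, with a fitted change of 4.93 (SE 0.27).

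Genes that mark other transmitter systems did not share a direction. Of 7 genes of serotonin, acetylcholine and dopamine neurons, 5 rose, 1 fell and 1 did not pass, with a median of 0.41. Over all genes 31.5% rose and 33.1% fell. Slc5a7, the choline transporter, rose by 1.27 (SE 0.10). Tph2, the enzyme that starts serotonin synthesis in neurons, rose by 1.23 (SE 0.10, limma adjusted p = 1.61e-08), from 4.45 to 4.99 log2 CPM in input (median 4.73) to 5.43 to 6.33 in IP (median 6.10). Its libraries did not overlap. Fev, the factor that specifies serotonin neurons, fell by 0.55 (SE 0.17, limma adjusted p = 0.00766), and the serotonin transporter gene Slc6a4 rose by 0.41 (SE 0.08). The summed level of the 7 genes was 132 to 202 CPM in IP and 96.0 to 121 in input, and none had 0 reads in any IP library. Their part in the enrichment of other genes was not tested.

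Of 8 genes of glutamatergic neurons, 1 rose and 6 fell, beside 31.5% of all genes that rose and 33.1% that fell. The one that rose was Slc17a6, the vesicular glutamate transporter of brainstem neurons, at 7.28 to 8.22 log2 CPM in IP and 6.44 to 7.07 in input, a change of 1.08 (SE 0.09). Slc17a7, the transporter of cortical and cerebellar granule neurons, fell by 0.43 (SE 0.06) and Cbln3, a granule cell gene, fell by 0.46. Of 9 genes of GABA and glycine neurons, 3 rose and 4 fell. Gad1, which makes GABA, rose by 0.84 (SE 0.08), and Lhx1, a factor of inhibitory neurons, fell by 0.59 (SE 0.15). The cerebellar list had 4 genes higher and 4 lower of 10. Gabra6 among them ranged from -0.60 to 4.16 log2 CPM over the inputs and from 1.86 to 4.76 over the IP libraries. Of 8 genes of neighbouring pontine neurons, 4 rose, led by Foxp2 (0.77, SE 0.10), and 2 fell, Barhl1 (-0.59, SE 0.09) and En1 (-0.31). The fall of En1 did not hold once a trend on coding GC content and length was removed (0.0043, SE 0.10), which left 1 of the 8 lower, nor without animal IP_506 or IP_507.

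Glial and vascular genes were present in IP, and their summed levels overlapped those of input. Of 18 astrocyte genes, 9 rose and 6 fell, with a median of 0.15, beside 31.5% of all genes that rose and 33.1% that fell. The list summed to 5316 to 7301 CPM in IP (median 6929) and 4827 to 5566 in input (median 5358), so that its median sum was higher in IP. The transporter and metabolic genes Slc4a4 (0.66) and Aldh1l1 (0.65) led the rises, and the factor Sox9 (-0.43, SE 0.07) and the calcium-binding protein gene S100b (-0.39, SE 0.07) led the falls. Of 20 oligodendrocyte genes, 9 rose and 10 fell, with a median of -0.18 and sums of 7796 to 9817 CPM in IP and 8384 to 10630.5 in input. Aspa, which splits N-acetylaspartate, rose by 1.03 (SE 0.08) and Gsn by 0.83 (SE 0.08), while the myelin genes Fa2h and Mobp fell by 0.65 (SE 0.06) and 0.63 (SE 0.08).

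Microglial genes were split as well, 5 higher and 4 lower of 17, beside 31.5% of all genes higher and 33.1% lower. Their median of 0.01 turned negative under quantile normalization, median centring, sample quality weights and the filter to the upper 75% of genes. It also did so without animal IP_504 or IP_507. Their sums were 348 to 651 CPM in IP and 349 to 606 in input. Itgam rose by 0.52 (SE 0.12) and Laptm5 fell by 0.65 (SE 0.10). Of 13 endothelial and pericyte genes, 5 rose, 0 fell and 8 did not pass, with the efflux pump gene Abcb1a (1.10, SE 0.18) first. In the list of ependyma, choroid plexus and blood, 1 of 10 rose and 7 fell, among them the haem enzyme gene Alas2 (-0.65, SE 0.12) and the globin gene Hba-a1 (-0.61, SE 0.10). Of 7 genes of oligodendrocyte precursors, 3 rose and 2 fell. Of 6 genes of meninges and fibroblasts, 2 rose and 2 fell, with Igf2 lowest (-0.70, SE 0.08). The meninges and fibroblast list summed to 165 to 224 CPM in IP and 239 to 334 in input, without overlap. No member of any of these lists had 0 reads in an IP library. Their part in the changes of neuronal genes was not tested.

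**Figure D2:**
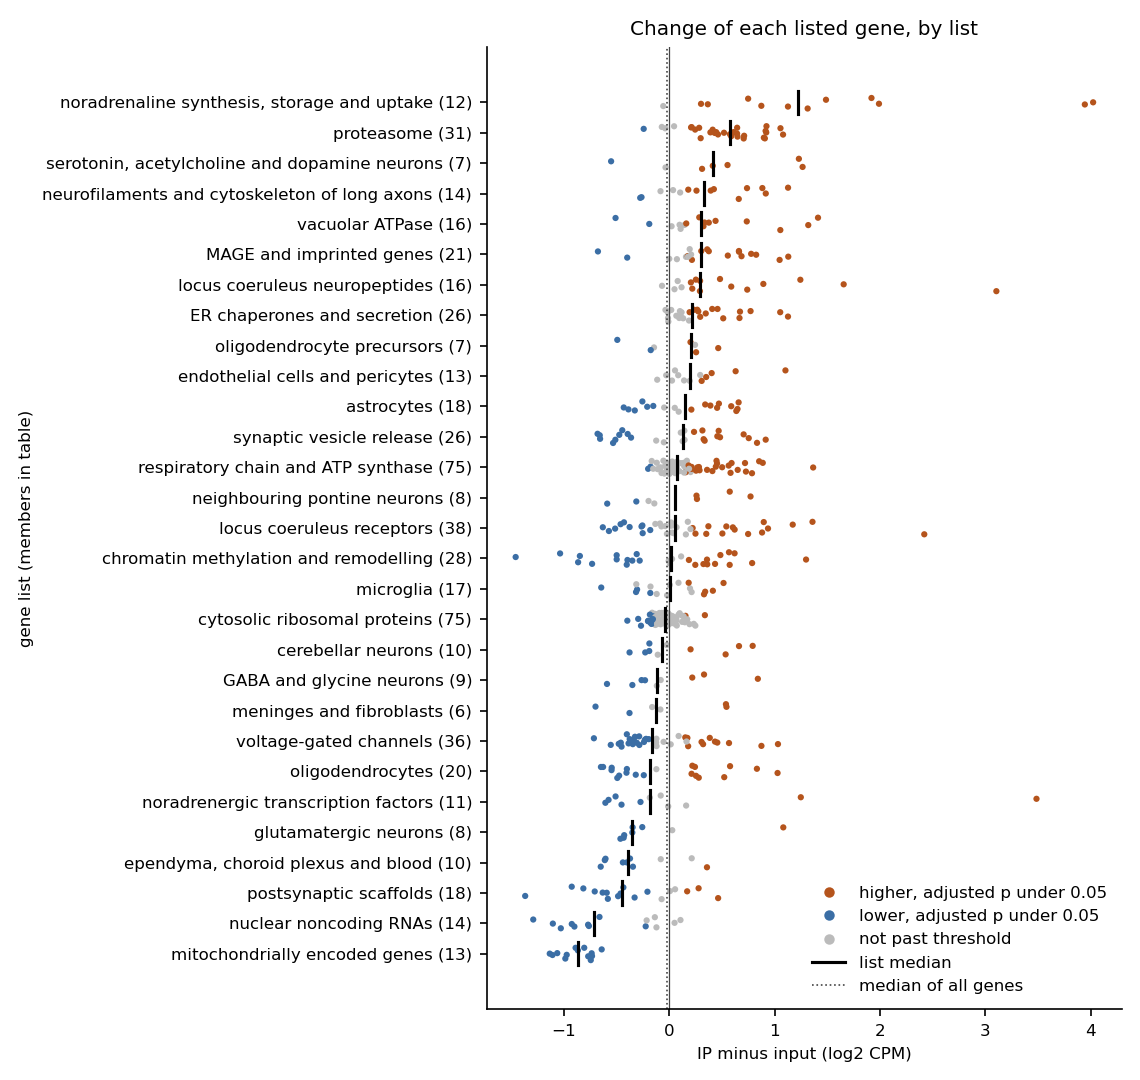
Change from input to IP in log2 CPM (horizontal axis) of every measured member of 29 gene lists (vertical axis, number of members in brackets), coloured by whether it passed the threshold, with a black bar at each list median. The noradrenaline list has the highest median (1.22) and the genes encoded in mitochondria the lowest (-0.87), while glial lists spread to both sides of 0.

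Noncoding RNAs listed as nuclear were more often lower in IP than higher. Of 14 on the list, 0 rose, 9 fell and 5 did not pass, beside 33.1% of all genes that fell. Their median was -0.71 against -0.03 for all genes. Where each of these RNAs lies in the cell was not measured. Malat1, a nuclear speckle RNA, stood at 6.32 to 8.20 log2 CPM in IP (median 7.10) and 8.01 to 8.82 in input (median 8.63). Its change of -1.29 (SE 0.20, limma adjusted p = 2.29e-05) ran from -2.48 in animal IP_504 to 0.11 in animal IP_505, so that 5 of 6 animals were lower. Meg3, an imprinted noncoding RNA, fell by 0.93 (SE 0.14) without overlap. Miat and Mir124a-1hg, the host transcript of a neuronal miRNA, fell by 1.03 (SE 0.12) and 1.10 (SE 0.12). The host RNAs of small nucleolar RNAs Snhg14 (0.11) and Snhg12 (0.05) did not pass. By annotated type, 80 of 113 lincRNA genes fell and 5 rose, with a median of -0.48, and 38 of 53 antisense genes fell and 0 rose, also with a median of -0.48. Of 11989 protein-coding genes with a coding sequence, 3890 rose and 3834 fell, with a median of -0.01. The strand setting of the counting is not given in the sources used here, so antisense reads and those of the partner gene cannot be told apart.

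The 13 genes encoded in the mitochondrial genome, which are translated by mitochondrial and not by tagged cytosolic ribosomes, all fell, by 0.64 to 1.13. COX1, a subunit of cytochrome oxidase, stood at 12.27 to 13.86 log2 CPM in IP (median 12.78) and at 13.44 to 15.15 in input (median 13.97). Its change was -1.13 (SE 0.14, limma adjusted p = 1.95e-06). The groups overlapped, with animal IP_507 highest in both, and all 6 animals were lower in IP. The median of the 13 genes was -1.60 in animal IP_504, -1.13 in animal IP_512, -1.01 in animal IP_506, -0.74 in animal IP_507, -0.30 in animal IP_511 and -0.27 in animal IP_505. Of 75 nuclear genes for the respiratory chain and ATP synthase, 24 rose, 2 fell and 49 did not pass, with a median of 0.07. Among all genes 31.5% rose and 33.1% fell. The core subunit genes Ndufs1 of complex I and Uqcrc2 of complex III rose by 1.37 (SE 0.09) and 0.89, and Cycs, for cytochrome c, fell by 0.20 (SE 0.08). In each animal the median of the nuclear genes lay above that of the mitochondrial genes, between -0.11 and 0.39. The list of mitochondrial genes was made after the values were seen.

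**Figure D3:**
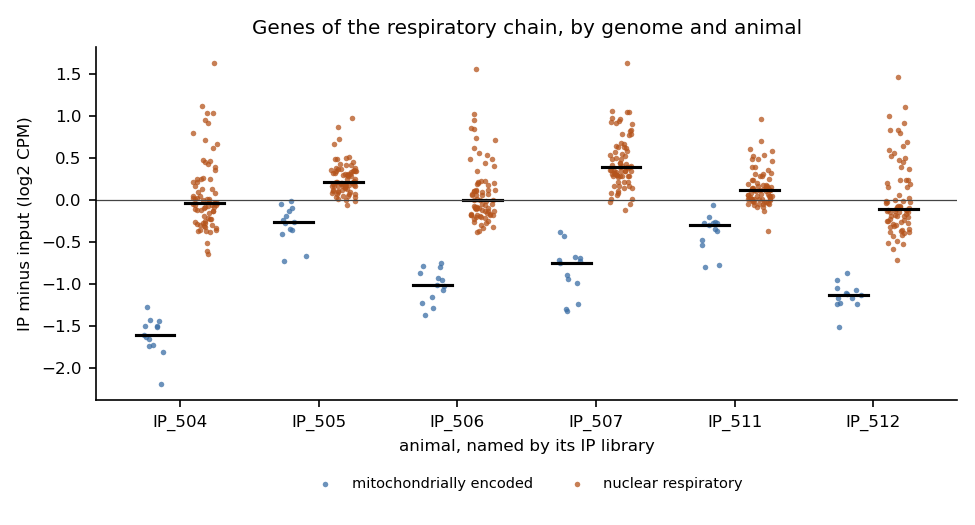
Change from input to IP in log2 CPM (vertical axis) of the 13 genes encoded in mitochondria (blue) and 75 nuclear respiratory chain genes (orange) in each animal (horizontal axis), each point being a gene and each bar a median. The blue medians lie below 0 in all 6 animals, from -1.60 to -0.27, and the orange medians lie between -0.11 and 0.39.

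Genes of the translation and protein-handling machinery differed by complex. Their counts stand beside 31.5% of all genes higher and 33.1% lower. Of 31 proteasome genes, 27 rose, 1 fell and 3 did not pass, with a median of 0.58 that lay between 0.27 and 0.84 in single animals. Psmc6, a base ATPase, rose by 1.08 (SE 0.07) and Psma4, a core ring subunit, by 1.06 (SE 0.08), and the exception was the ATPase gene Psmc5 at -0.24 (SE 0.06). Of 16 genes of the vacuolar ATPase, the pump that acidifies vesicles and lysosomes, 10 rose and 2 fell, with Atp6v1h at 1.41 (SE 0.09) and Atp6v1g2 at -0.51. Of 26 genes for ER chaperones and secretion, 14 rose and 0 fell, led by Hsp90b1 (1.13, SE 0.08) and Hspa5 (1.05, SE 0.08). The 75 cytosolic ribosomal protein genes stayed close to 0, with a median of -0.04, and 2 rose and 15 fell. Rpl12 at -0.40 (SE 0.07) and Rpl35a at 0.34 (SE 0.09) were their extremes, and copies of these genes elsewhere in the genome make each count uncertain.

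Of 14 genes for neurofilaments and the cytoskeleton of long axons, 9 rose and 2 fell, with a median of 0.33. Among all genes 31.5% rose and 33.1% fell. Nefm, a neurofilament subunit, ranged from 8.81 to 9.37 log2 CPM in IP and 7.63 to 8.63 in input and rose by 1.13 (SE 0.09), and Tubb3, the neuronal tubulin, rose by 0.92 (SE 0.08). Of 18 postsynaptic scaffold genes, 3 rose and 12 fell, with a median of -0.45. Shank1, a scaffold of dendritic spines, fell by 1.37 (SE 0.09, limma adjusted p = 1.12e-09), from 7.63 to 8.28 in input to 5.98 to 7.31 in IP, without overlap. Its relative Shank3 fell by 0.93 (SE 0.07), and Dlg3 rose by 0.46 (SE 0.06). The 26 genes of synaptic vesicle release went both ways, 11 higher and 9 lower. Syt4 (0.92, SE 0.07) and Cadps (0.83, SE 0.08), both tied to dense-core vesicles, led the rises, and Bsn of the active zone (-0.68, SE 0.07) and the complexin gene Cplx1 (-0.66, SE 0.08) led the falls. The fall of Bsn did not hold once a trend on coding GC content and length was removed (0.076, SE 0.06).

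Of 36 voltage-gated and related channel genes, 11 rose and 18 fell, with a median of -0.16. Over all genes 31.5% rose and 33.1% fell. The sodium channel gene Scn1a rose by 1.03 (SE 0.08) and the potassium channel gene Kcnd2 by 0.87 (SE 0.09), while the pacemaker channel gene Hcn4 fell by 0.56 (SE 0.11). Among 21 MAGE family and imprinted genes, 13 rose and 2 fell, with a median of 0.30. Magee1 and Peg3 rose by 1.13 (SE 0.07) and 1.05 (SE 0.06), and Snrpn and Nnat fell by 0.68 (SE 0.13) and 0.40 (SE 0.06). The 28 chromatin genes divided evenly, 12 higher and 12 lower, and their median of 0.02 turned negative under quantile normalization, median centring and removal of the trend on coding GC content and length, and without animal IP_506. Atrx, a chromatin remodeller, rose by 1.30 (SE 0.08), and the histone methyltransferase gene Kmt2d fell by 1.46 (SE 0.11), from 6.76 to 7.22 log2 CPM in input to 4.98 to 6.16 in IP.

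The 25 largest rises that went the same way in all 6 animals were of 2 kinds. Dbh, Slc6a2, Phox2a, Gal, Calcr, Th and Slc18a2 made up 7 of them. The other 18 were on none of the noradrenergic lists and included Zfp638 (2.13, SE 0.08), a nuclear RNA-binding protein, Ranbp2 (2.11, SE 0.10), a nuclear pore protein, and Top2b (2.10, SE 0.09), a topoisomerase, followed by Esf1, Dock11, Smc3, Ddx10, Scfd1, Matr3, Cwf19l2, Ssb, Ranbp6, Ascc3, Fstl5, Hsp90aa1, Nol8 and Vps35 (1.69, SE 0.08). Zfp638 stood at 5.23 to 6.21 log2 CPM in IP and 3.20 to 4.15 in input, and its change spanned only 1.85 to 2.29 over the animals. In all 25 the lowest IP library was above the highest input, beside 16.7% of all genes. The 25 were picked for large rises in these same libraries, so the separation describes the selection and is no further test. The 25 largest falls began with Ppp1r3e (-1.56, SE 0.15), which targets a phosphatase to glycogen, Kmt2d, Uhmk1 (-1.45, SE 0.12), Stard9 (-1.38, SE 0.14) and Shank1. They went on through Tmem28, Klhl3, Pkd1, Tcf7l1, Cacng4, Slc25a23, COX1, AI480526, Gltscr1, ND4L, Ccdc167, Mir124a-1hg, Nuf2, Fam217b, Gna12, Shc3, Mogat1, Sox12 and Zfp609 to Samd4b (-1.07, SE 0.07). In 20 of the 25 the highest IP library was below the lowest input, beside 13.4% of all genes. These too were picked by size in the same libraries.

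The genes named among these 18 had coding sequences low in G and C, between 39.1% in Ssb and 44.0% in Ddx10. A stretch of 120 bases around the middle of the coding sequence is shown for 2 genes that rose outside the noradrenergic group, for the noradrenergic gene Dbh and for 1 gene that fell, with every G and C in capitals, on the coding strand, from GENCODE transcripts on GRCm38.
Top2b: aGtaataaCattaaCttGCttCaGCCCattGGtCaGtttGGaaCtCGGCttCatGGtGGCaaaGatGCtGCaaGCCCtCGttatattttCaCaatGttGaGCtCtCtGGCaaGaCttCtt
Ranbp2: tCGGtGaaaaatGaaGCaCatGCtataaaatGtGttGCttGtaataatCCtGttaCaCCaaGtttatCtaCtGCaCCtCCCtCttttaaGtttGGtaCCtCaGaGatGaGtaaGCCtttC
Dbh: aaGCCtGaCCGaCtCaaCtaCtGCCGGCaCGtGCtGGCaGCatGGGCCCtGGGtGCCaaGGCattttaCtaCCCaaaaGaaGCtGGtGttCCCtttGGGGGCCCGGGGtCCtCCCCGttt
Shank1: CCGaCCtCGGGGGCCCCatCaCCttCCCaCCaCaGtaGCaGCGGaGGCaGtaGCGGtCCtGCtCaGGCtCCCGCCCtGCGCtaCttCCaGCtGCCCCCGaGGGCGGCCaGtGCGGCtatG
The Top2b stretch (coding bases 2359 to 2478) held 52 G or C in 120 and the Ranbp2 stretch (4522 to 4641) held 46. The Dbh stretch (874 to 993) held 73 and that of Shank1 (3193 to 3312) held 85. Over the whole coding sequence GC content was 39.4% in Top2b, 40.8% in Ranbp2, 56.5% in Dbh and 63.6% in Shank1. The genes lie at chr14:16365206-16430787 (Top2b), chr10:58446852-58494155 (Ranbp2), chr2:27165507-27183204 (Dbh) and chr7:44308916-44360094 (Shank1).

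The same relation ran through the table. Over 11989 coding genes the change had a Spearman rho of -0.45 with coding GC content (between -0.45 and -0.37 in single animals), of -0.39 with GC content at the last position of codons, of -0.34 with that of the 3′ UTR and of 0.23 with coding length. These are descriptions across genes, which share libraries and base composition and are not independent replicates. The median change was 0.59 in 123 genes with a coding GC content of up to 40%, 0.42 in the 1166 from there to 45%, 0.18 in the 2558 to 50%, -0.01 in the 3343 to 55%, -0.12 in the 3236 to 60% and -0.24 in the 1563 above. A rise of at least 1 was seen in 22.8% of the genes up to 40% and in 0.192% of those above 60%. The genes that rose by at least 1 had a median coding length of 2508 bases and a median GC content of 44.5%, against 1419 bases and 53.3% for all. Of these 376 coding genes, 19 had a GC content above the median of all. Among the 10 coding genes with a rise of at least 2 there were 4 such genes, and these are Dbh, Slc6a2, Phox2a and Gal.

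**Figure D4:**
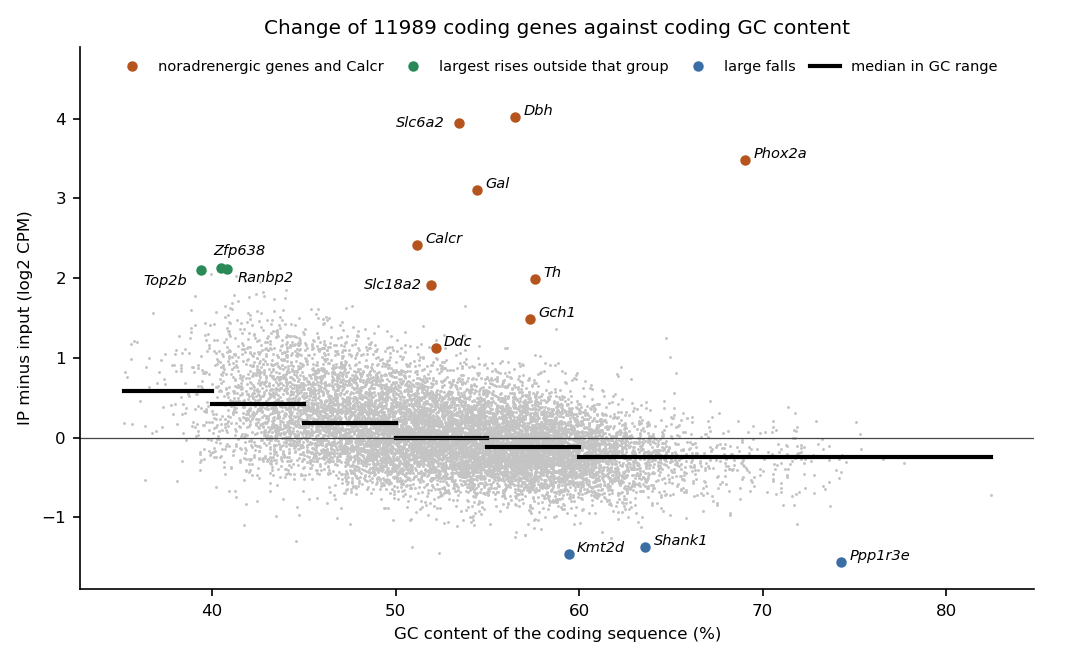
Change from input to IP in log2 CPM (vertical axis) against the GC content of the coding sequence in percent (horizontal axis) for 11989 coding genes (grey points), with black bars at the median of each GC range and named genes coloured by group. The medians step down from 0.59 to -0.24 from left to right, and Dbh, Slc6a2, Gal and Phox2a stand above all grey points.

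Because of this relation, the paired test was repeated after the trend of each library on coding GC content and coding length had been removed, an alternative chosen after the values were seen. In it 7384 of 11989 genes passed (61.6%), but only 83 were higher by at least 1 (0.692%) and 43 lower by at least 1 (0.359%). Of the 376 coding genes higher by at least 1 before, 68 were so after. The noradrenergic genes kept their size: Dbh changed by 4.06 (SE 0.13), Slc6a2 by 3.89 (SE 0.13), Phox2a by 3.80 (SE 0.24), Gal by 3.27 (SE 0.13), Calcr by 2.31 (SE 0.16), Th by 2.07 (SE 0.10) and Slc18a2 by 1.83 (SE 0.09). Zfp638, Ranbp2 and Top2b dropped to 1.09, 1.06 and 1.02. Of the genes named above that had passed, Fev (-0.26), Insm1 (-0.090), Adra2c (-0.13), Cycs (-0.063), En1, Gabra6 and Bsn no longer passed. The cause of the trend was not tested.

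Further down after trend removal came genes picked with their values in view, of which all but Chodl have a coding GC content above the median. Calca changed by 1.82 (SE 0.11), Slc10a4, a vesicular orphan transporter of aminergic and cholinergic neurons, by 1.73 (SE 0.12), and Gch1 by 1.64 (SE 0.11). Chodl (1.55, SE 0.13), the secreted matrix protein gene Adamtsl2 (1.52, SE 0.16) and the extracellular glutathione peroxidase gene Gpx3 (1.39, SE 0.09) followed. Before removal Slc10a4 ranged from 5.62 to 6.33 log2 CPM in IP (median 5.77) and from 3.97 to 4.61 in input (median 4.34), and it rose by 1.60 (SE 0.13, limma adjusted p = 1.52e-08). Gpx3 ranged from 7.45 to 8.23 in IP and 6.31 to 6.85 in input and rose by 1.28 (SE 0.09, limma adjusted p = 3.99e-09). The libraries of Slc10a4, Chodl, Adamtsl2 and Gpx3 did not overlap, beside 16.7% of all genes with every IP library above every input.

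**Figure D5:**
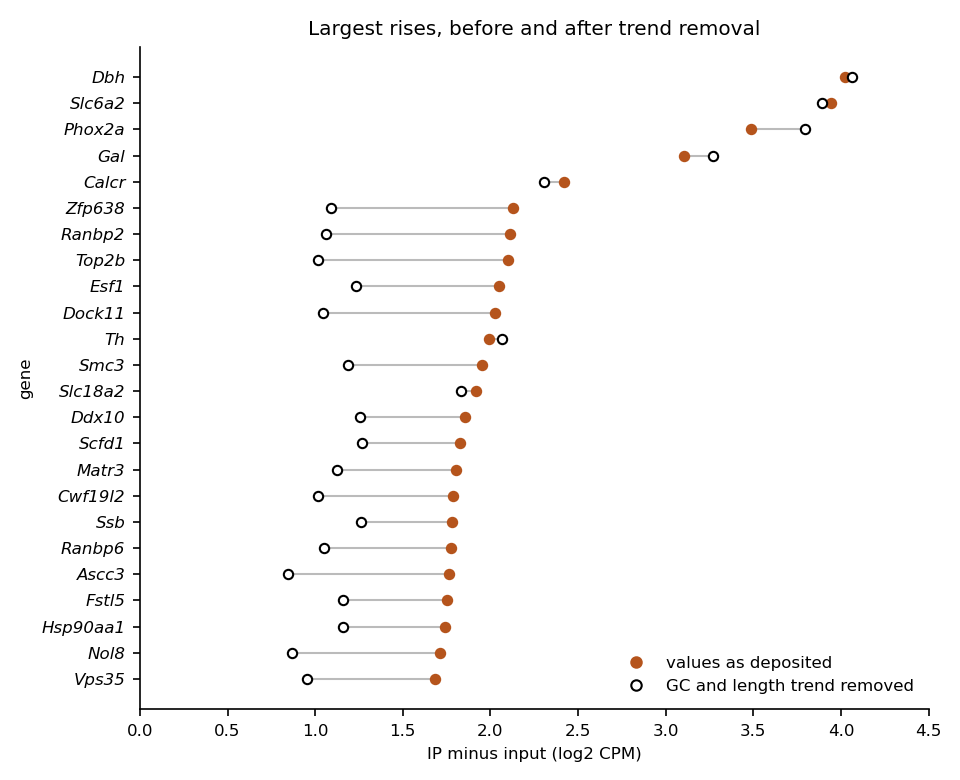
Change from input to IP in log2 CPM (horizontal axis) of 24 of the 25 genes with the largest rises (vertical axis), as deposited (orange) and after removal of the trend on coding GC content and length (open circles). Dbh, Slc6a2, Phox2a, Gal, Calcr, Th and Slc18a2 move little, whereas the other 17 genes shown fall back to between 0.84 and 1.27.

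With the trend removed, 31.1% of all genes were higher and 30.5% lower, against which the counts of lists are to be read. The proteasome list had 24 of 31 genes higher and 3 lower with a median of 0.58, equal to that before, and the neurofilament list had 11 of 14 higher with a median of 0.50. The nuclear respiratory list moved from 24 to 59 of 75 genes higher, with a median of 0.23, and the ribosomal protein list from 2 to 28 of 75 higher, with a median of 0.09 in place of -0.04. The postsynaptic list had 11 of 18 genes lower and a median of -0.27. Astrocyte and oligodendrocyte genes remained divided, with 9 of 18 and 7 of 20 higher and 3 and 8 lower.

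In the hTyr animals the same genes were examined. All 25 of the largest rises were higher in IP in each of the 5 hTyr animals and all 25 of the largest falls were lower. Among the 156 genes that the naming rule selects, the difference in change between hTyr and EYFP animals passed the threshold in 0. Of all 12596 genes, 5 passed (0.0397%). An unadjusted p under 0.05 by limma was reached by 26 of the 156 and by 874 of the 12596. Th rose by 2.78 in hTyr animals and by 1.99 in EYFP animals (difference 0.79, SE 0.21, limma adjusted p = 0.453). Dbh rose by 4.30 and 4.02 (difference 0.28, SE 0.25, limma adjusted p = 0.843). A p that misses the threshold does not show that the enrichment was equal.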

How the data were processed

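The comparison uses 12 libraries from 6 EYFP animals, and 10 libraries from 5 hTyr animals for a single test of the difference. Reads were aligned with STAR and counted with featureCounts on mm10, per the submitters' processing notes; versions, strand setting, filter and normalization are not given in the sources used here. The authors deposited 1 table of log2 values, named as filtered, normalized and log transformed. The deposited log2 values are log2 CPM: 100% of them gave whole reads within 0.05 of a read once a pseudocount averaging 2 reads was taken off, so reads and depth were recovered. Depth covers genes in the table only, and reads carry no molecular identifiers, so it speaks of counting error only. The table lists 21 genes by a bare number in place of a symbol, and these are not named.

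IP was compared with input by limma 3.58.1 in R 4.3.3 (lmFit, eBayes with a mean-variance trend) with the animal as a block, Benjamini-Hochberg adjustment over 12596 genes and a threshold of 0.05. All adjusted p-values are from these limma fits. The block rests on the animal numbers in the sample titles: deviations of IP and input of an animal correlated with r between 0.354 and 0.626, and every IP library correlated best with its own input. Nothing in the labels says that the animals were handled in batches. The text names the 25 largest rises and 25 largest falls that passed, went the same way in 6 animals and have a symbol that is not a predicted one (Gm and a number, ending in Rik, or LOC). It also names Dbh, Slc6a2, Gal, Phox2a, Th, Slc18a2, Ddc and Gch1, and up to 4 members a list with the largest changes. Other members named were chosen after their values were seen, and some genes that these rules select are not reported here. The lists and the comparison were chosen with earlier results of these data known.

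Coding length and GC content came from GENCODE M21, matched by symbol or older symbol for 12384 genes (98.3%). The trend on both was removed per library by loess with a span of 0.4. Alternatives were no block, no trend in the prior, quantile normalization, median centring, the upper 75% of genes, 5 CPM added, sample quality weights, all 22 libraries, leaving out each animal and, added after the data were seen, voom on the recovered reads and the trend removal. Figures were drawn with Python 3.11.15.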

Additional observations from a re-analysis of the deposited data

Results flagged for a closer look

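Among 304 groups of 6 libraries (each gene of the naming rule that is reported, in IP and in input), 23 held 1 library whose gap to the nearest other was more than 0.625 of the whole range, where chance gives about 1 in 20, or 15.2 here. Of the 23, 14 concerned animal IP_505, 5 animal IP_507, 3 animal IP_504 and 1 animal IP_512.

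In the IP library of animal IP_505 the level was below the other 5 for Zfp638 (5.23 log2 CPM, next 5.87), Esf1 (3.51, next 4.28), Matr3 (7.81, next 8.45), Ranbp6 (5.59, next 6.42) and Ascc3 (3.45, next 4.18). It was also below them for Gad2 (7.02, next 7.37), Slc2a1 (5.30, next 5.82), Peg3 (7.80, next 8.51), Nefm (8.81, next 9.26) and Cadps (8.0, next 8.55). The input of that animal was low for Dock11 (-0.037, next 1.31) and Scn1a (5.88, next 6.41) and high for Shank1 (8.28, next 7.80) and Sox12 (5.49, next 5.22). Zfp638, Esf1, Matr3, Ranbp6 and Ascc3 were higher in IP than in input in all 6 animals.

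In animal IP_507 the IP library was low for Uhmk1 (2.32, next 3.46) and Fam217b (2.96, next 4.02), and the input was high for the mitochondrial genes COX1 (15.15, next 14.02), ND4L (9.21, next 8.08) and ND5 (10.88, next 9.68). In animal IP_504 the IP library was low for Fev (0.93, next 2.10) and Igf2 (6.49, next 7.10), and the input was low for Kl (3.60, next 4.94). In animal IP_512 the input was low for Olig2 (6.11, next 6.31).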

How the results depend on the processing

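The count of changed genes stayed within 1.5 times of 8133 under all 16 alternatives run. Without the replicate block, that is without the pairing, 7123 genes passed, and with the block 8133, with 385 higher by at least 1 in place of 386 and 62 in both fits lower by at least 1. Adding 5 CPM, which shrinks changes of low genes by construction, left 190 genes higher and 14 lower by at least 1. Removing the trend on coding GC content and length left 83 higher by at least 1, among 11989 genes tested. The upper 75% of genes left 32 lower by at least 1, among fewer genes tested. Leaving out 1 animal at a time gave 7294 to 8157 changed genes, 341 to 452 higher and 46 to 94 lower by at least 1, the last without animal IP_505. Leaving out animal IP_511 gave nearly as many, 451 higher and 90 lower by at least 1. The cause of the higher counts without animal IP_505 or IP_511 was not tested. For the difference between treatments in named genes, the count was 0 in the 13 alternatives fitted for it: no replicate block, no trend in the prior, and leaving out each of the 11 animals.

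Of the changes of named genes under these alternatives, 2386 kept direction and side of the threshold, 58 missed it without a turn, and 5 turned. COX1 came to 0 under quantile normalization, which gives the top-ranked gene of every library the same value by construction. After removal of the GC and length trend Zic2 (0.087), En1 (0.0043), C1ql1 (0.094), Bsn (0.076) and Cox6a1 (0.036) stood at or just above 0, and the cause was not tested. Without the replicate block the calls of Alas2, Cbln3, Slc17a7 and Rpl35a were lost, among others. Genes higher and lower went from 4 and 4 to 2 and 0 in the cerebellar list and from 5 and 4 to 1 and 2 in microglia. They went from 1 and 6 to 1 and 2 in the glutamatergic list and from 3 and 12 to 2 and 7 in the postsynaptic list. The noradrenaline list kept 11 and 0, and the proteasome list 27 and 1. Every input of Phox2a, Calcr, Gm39813 and Gm40600 held fewer than 50 reads, as did single libraries of Fev, Gabra6 and Dock11 among others, which limits the precision of their changes. Replicates are animals and the main fit is paired, so its p-values speak of how the IP-minus-input difference varied between animals.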

Other observations

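After the trend on coding GC content and length was removed, the largest falls were those of Cdr1 (-1.67, SE 0.28), Nuf2 (-1.56), Uhmk1 (-1.49), Fbxw15 (-1.37), Dgkk (-1.33), Uggt2 (-1.32) and Stard9 (-1.32). As deposited, Uggt2 changed by -0.38 and Brca2, at -1.11 after removal, by -0.14, so that for these genes most of the fall appears only after removal. Cdr1 had 45 to 255 reads in IP and 124 to 481 in input and was lower in IP in 5 of 6 animals, from -2.45 to 0.88.

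Animals differed in the size of the changes, and the order of animals was not the same for Dbh as for noncoding and mitochondrial RNA. Animal IP_504 had the largest rise of Dbh (4.87) and the lowest medians of mitochondrial genes (-1.60) and of noncoding RNAs listed as nuclear (-1.01). Animal IP_505 had a rise of Dbh of 4.20 with the medians nearest to 0 (-0.27 and -0.17), and animal IP_511 had 3.66 with -0.30 and -0.36. Animal IP_507 had the smallest rise of Dbh, 3.19, with -0.74 and -0.53. The slope of the change on coding GC content was negative in all 6 animals, from -0.23 to -0.40 for each 10 percentage points.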
